A study of Mus musculus with 2 samples.

Results

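The genes described here encode the parts by which cells hold on to each other and the filaments anchored there: claudins and other tight junction proteins, nectins, cadherins, protocadherins, catenins, desmosome proteins, connexins, keratins, polarity proteins, and the epithelial genes Epcam and Sfn. They were taken by a name pattern applied to the gene symbols of the array platform, which read no measured value but was set with earlier results of these data known, and 106 of the 11484 measured genes matched it, read by 113 of 13989 probes. Of the 106 genes, 99 were read by 1 probe and 7 by 2 probes. Several genes central to these structures, among them the cadherin genes Cdh1 and Cdh2, the keratin gene Krt18 and the occludin gene Ocln, were not analysed here.

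Expression had been measured on a 1-colour mouse oligonucleotide array in 2 samples of embryonic origin, both from the strain given as C57/ICR. The stem cells generated with a small molecule (called the generated stem cells below) were at passage 5 and in ES (embryonic stem cell) medium, and the parental cells were at passage 1 and in FBS (fetal bovine serum) medium. The molecule, its dose and the length of treatment are not named in the labels, and passage, medium and treatment cannot be told apart. The design text speaks of 3 replicates a sample, but only 1 column for each was analysed here, so there was no replicate, no SD and no test between the groups, and every difference below describes these 2 samples. In bulk RNA such as this, fewer cells of a type and less RNA per cell cannot be told apart.

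Epithelial cells are sealed to each other by tight junctions, whose strands are built from claudins and are tied to actin by scaffold proteins. Below these lie adherens junctions, in which cadherins bind their like on the next cell and catenins link them to actin, and desmosomes, in which specialised cadherins are tied to keratin filaments. Mesenchymal cells such as fibroblasts lack most of these seals and carry other cadherins, and mouse ES cells grow as compact colonies with epithelial junctions.

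Median intensity was 305 in the generated stem cells and 304 in the parental cells. The 25th percentile of each column, 93.4 and 93.8 in the same order of samples, was taken as a floor. A gene at or under the floor in both samples was given no fold, and a value under it in 1 sample was set to the floor, so that the fold is then a lower bound ("at least"). Members whose bound came to less than 2-fold, 11 in all, were counted with those that differed by less than 2-fold, although their true difference may be larger (2 of them, Marveld2 and Pcdhb4, were past 2-fold in the values as given). The probes of a gene read by 2 probes differed with an SD of 1.05 on the log2 scale around their gene (601 genes), which corresponds to 2.08-fold and covers probes on the same arrays, not cultures. Differences near 2-fold are therefore within the error of a probe, and a difference of 4.31-fold equals 2 SD of it. Among marker genes, 7 of 8 measured pluripotency genes were 2-fold or more higher in the generated stem cells (Nanog, at 94.7 and 77.7, was the exception), and all 6 measured mesenchymal genes were lower. The marker lists were made with earlier results of these data known, so that these directions are no independent check of the labels.

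Of the 106 genes, 81 exceeded the floor in 1 or both samples and 25 did not. At the 2-fold rule, 20 of the 81 (24.7%) were higher in the generated stem cells than in the parental cells, and 15 (18.5%) were lower. Over the 9766 genes of the array that exceeded the floor in the same way, 20.5% were higher and 20.8% lower, so that at 2-fold the shares of the members lay near those of all genes. The shares of all genes are the level beside which each family and list count below is to be read. Most families hold few genes, so that 1 gene moves their share a lot. The median log2 difference of the members was 0.07, against 0.10 over all genes. At 4-fold, 12 members (14.8%) were higher and 6 (7.41%) lower, against 6.32% and 9.15% of all genes. At 2 SD of the probe error, a size rule chosen after the values had been seen, 12 (14.8%) were higher and 4 (4.94%) lower, against 5.68% and 8.45% of all genes. The plot of both samples' intensities shows the members among all genes.

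**Figure D1:**
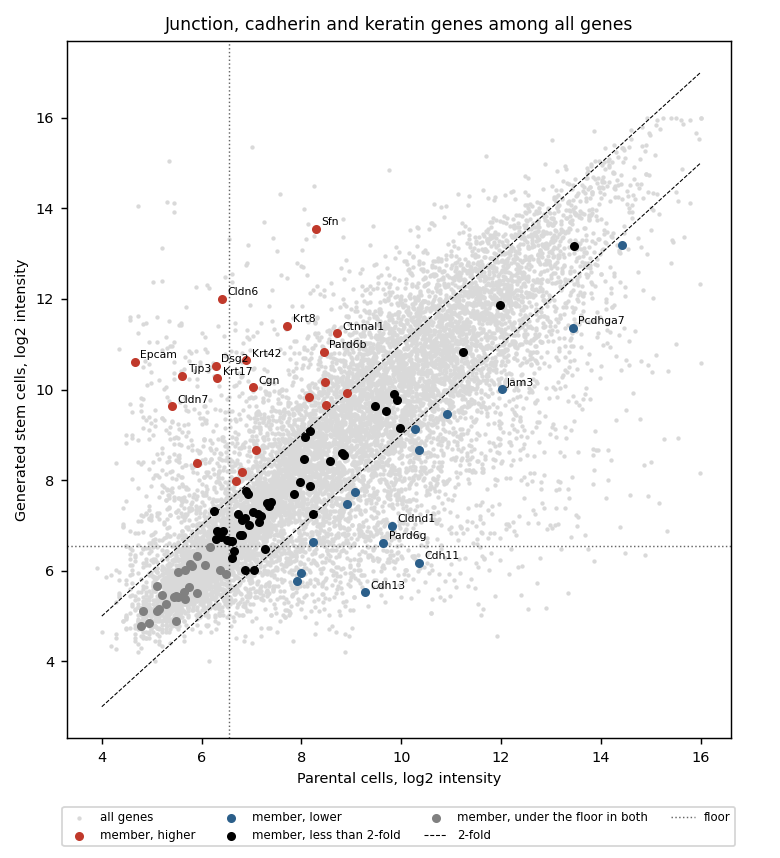
Log2 intensity of each gene in the generated stem cells (vertical axis) against the parental cells (horizontal axis), with all genes in light grey, members coloured by their difference, the 2-fold lines dashed and the floors dotted. The 20 higher members, such as Sfn, Cldn6 and Epcam, lie above the upper line and the 15 lower members, such as Cdh11 and Pcdhga7, below the lower line. Values are drawn as measured, also under the floor, so that a few members whose bounded difference is less than 2-fold lie just outside the lines, and names are given at 4-fold or more.

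Among the claudins, the transmembrane proteins that form tight junction strands, 4 were higher (30.8%) and 3 lower (23.1%) of 13 above the floor. Over all genes these shares were 20.5% and 20.8%. Cldn6, a claudin of embryonic epithelia and pluripotent cells, had an intensity of 4098 in the generated stem cells and 85.2 (below the floor) in the parental cells, at least 43.7-fold higher. Cldn7, a claudin of many epithelia, was at 794 in the generated stem cells and 42.7 (below the floor) in the parental cells, at least 8.47-fold higher. Cldn6 and Cldn7 were thus above the floor in the generated stem cells alone. Cldn3, a sealing claudin, was at 292 in the generated stem cells and 113 in the parental cells (2.59-fold higher). Cldn5, the main claudin of endothelium, was at 253 and 103 in the same order (2.46-fold higher), a difference that came to less than 2-fold when an offset of 50 was added to each value. The other 4 endothelial markers measured did not share 1 pattern. Vwf was at least 7.05-fold higher (661 in the generated stem cells and 36.7 in the parental cells), the member Cdh5 was at 206 and 122, Kdr at 77.0 (below the floor) and 117, and Pecam1 under the floor in both samples (79.8 and 48.9). The part of endothelial cells in the difference of Cldn5 was not tested.

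The 3 lower members matching the claudin name were Cldnd1, Cldn1 and Cldn15. Cldnd1, a claudin-domain gene that is only distantly related to the others, was at 127 in the generated stem cells and 898 in the parental cells, 7.06-fold lower. Cldn1, the claudin of the skin barrier, was at 99.2 in the generated stem cells, just above the floor, and 299 in the parental cells, 3.01-fold lower. Cldn15, which forms cation pores in the gut, was at 62.3, under the floor, in the generated stem cells and at 256 in the parental cells, at least 2.74-fold lower. Claudins thus differed in both directions, and the 2 largest differences, those of Cldn6 and Cldn7, were both upward. Cldn10, Cldn12, Cldn14, Cldn17, Cldn18 and Cldn19 were counted as less than 2-fold apart (Cldn14, Cldn17 and Cldn18 by a lower bound), with log2 differences from -0.72 (Cldn17) to 0.53 (Cldn19). Cldn12 was the member of these with values well above the floor in both samples, at 877 in the generated stem cells and 966 in the parental cells. The 2 probes of Cldn19 did not give the same picture, with 462 and 226 on 1 probe (2.05-fold higher) and 51 and 50, both under the floor, on the other. Cldn2, Cldn4, Cldn13, Cldn23, Cldn34c1 and Cldn34d were under the floor in both samples, Cldn4 on both of its probes (68.7 in the generated stem cells and 34.6 in the parental cells on 1, 73.4 and 85.2 on the other). Cldn4 is the direct neighbour of Cldn3 in the RefSeq gene order, so these neighbours did not share a value above the floor.

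Of the other tight junction proteins, 3 were higher (37.5%) and 2 lower (25%) of 8, all 8 above the floor. The higher ones were an adhesion molecule and cytoplasmic plaque proteins. Tjp3, the scaffold also called ZO-3, was at 1267 in the generated stem cells and 48.9 (below the floor) in the parental cells, at least 13.5-fold higher. Cgn, which encodes cingulin, a plaque protein that binds the scaffolds and myosin, averaged 1060.1 in the generated stem cells and 129.8 in the parental cells, 8.17-fold higher. Its 2 probes gave the same direction, 1 with 1805 in the generated stem cells and 182 in the parental cells (9.91-fold), the other with 623 and 92.6 (at least 6.64-fold). F11r, the junctional adhesion molecule JAM-A, was at 917 in the generated stem cells and 286 in the parental cells, 3.20-fold higher.

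Jam3 and Tjp1, paralogs of F11r and Tjp3, were lower. Jam3, the junctional adhesion molecule JAM-C, was at 1026 in the generated stem cells and 4130 in the parental cells, 4.02-fold lower, and Tjp1, the scaffold ZO-1 that fibroblasts also carry at their contacts, was at 702 and 1924 in the same order, 2.74-fold lower. Both genes stayed well above the floor in both samples. Within each of these families, then, 1 paralog was higher and another lower: Tjp3 against Tjp1, and F11r against Jam3. Cgnl1, the paralog of cingulin, differed little, at 951 in the generated stem cells and 932 in the parental cells. Marveld2, which encodes tricellulin of tricellular contacts, was at 160.4 in the generated stem cells and 75.8 (below the floor) in the parental cells (at least 1.71-fold higher), and Marveld1 was at 235 and 290.4.

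**Figure D2:**
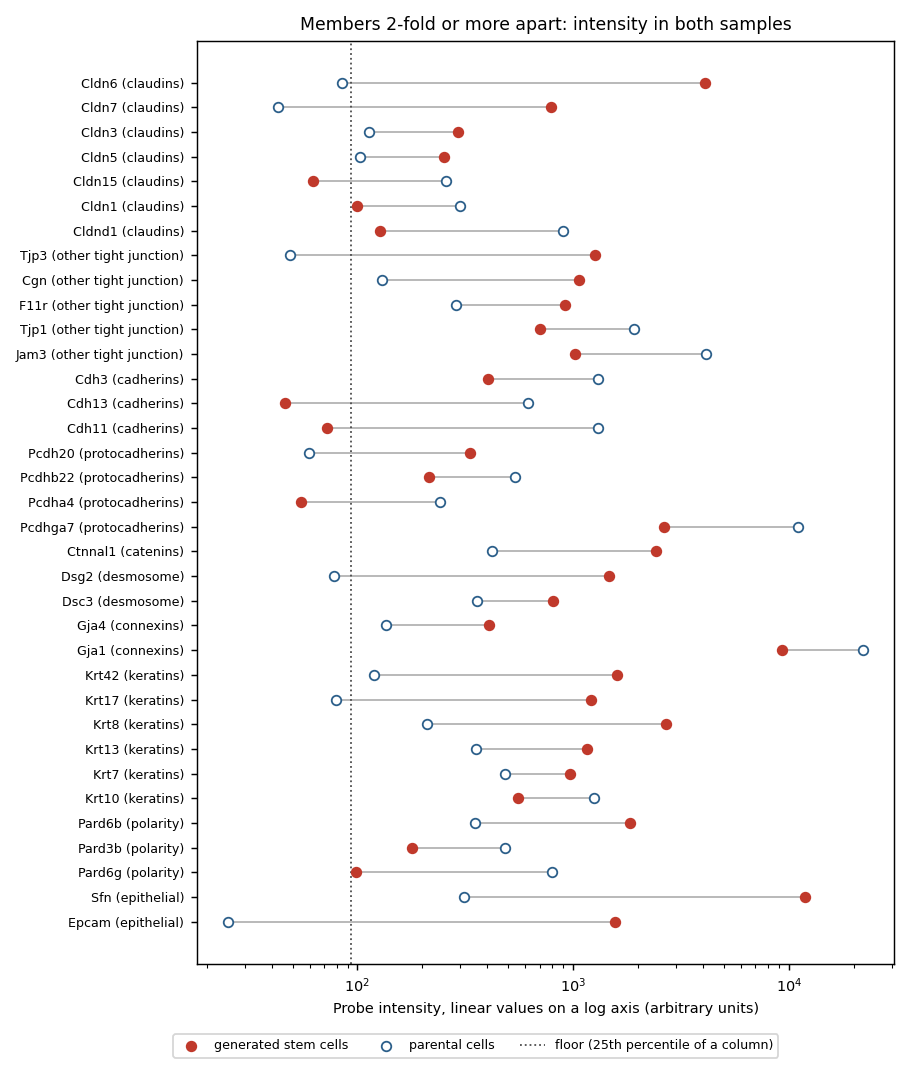
Intensity (horizontal log axis, arbitrary units) of the 35 members that were 2-fold or more apart, with filled points for the generated stem cells, open points for the parental cells and the floor dotted. The 20 higher members have the filled point to the right, and 7 of them have the open point under the floor. Of the 15 lower members, 4 have the filled point under the floor.

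For Cldn6, Sfn, Cldnd1 and Cldn1, the 300 bases around the annotated starts are shown, 5′ to 3′ in the direction of the gene. They were read from the RefSeq promoter table (build GRCm38.p6), and not every member was open to this choice. Cldn6 and Sfn were the members with the largest upward difference. Cldnd1 and Cldn1 had the largest downward difference among the members open to the choice. Left out were Cdh11 (log2 difference -3.80), Pard6g (-3.03), Cdh13 (-2.73), Pcdhga7 (-2.06), Jam3 (-2.01) and Cdh3 (-1.69), all lower by more than Cldn1 (-1.59). Capitals mark matches to CACCTG on either strand (CAGGTG on the other), the E-box core that Snail and Zeb repressors bind, and to AACCNGTT on either strand (AACNGGTT on the other), a Grainyhead-type motif that includes AACCGGTT. Cldn6 lies at chr17:23679115-23679414 on the plus strand and Sfn at chr4:133602119-133602418 on the minus strand. Cldnd1 lies at chr16:58727660-58727959 on the plus strand and Cldn1 at chr16:26371790-26372089 on the minus strand.
Cldn6: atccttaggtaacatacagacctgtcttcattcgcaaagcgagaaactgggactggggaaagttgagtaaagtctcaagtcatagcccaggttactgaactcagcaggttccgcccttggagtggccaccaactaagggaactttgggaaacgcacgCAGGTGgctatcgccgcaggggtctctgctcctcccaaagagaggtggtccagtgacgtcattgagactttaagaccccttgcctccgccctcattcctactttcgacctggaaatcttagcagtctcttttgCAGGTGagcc
Sfn: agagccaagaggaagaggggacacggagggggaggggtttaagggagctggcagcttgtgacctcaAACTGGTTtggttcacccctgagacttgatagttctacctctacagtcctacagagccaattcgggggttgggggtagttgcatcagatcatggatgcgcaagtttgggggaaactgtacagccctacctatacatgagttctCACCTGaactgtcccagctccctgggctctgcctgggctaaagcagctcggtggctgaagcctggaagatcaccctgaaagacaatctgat
Cldnd1: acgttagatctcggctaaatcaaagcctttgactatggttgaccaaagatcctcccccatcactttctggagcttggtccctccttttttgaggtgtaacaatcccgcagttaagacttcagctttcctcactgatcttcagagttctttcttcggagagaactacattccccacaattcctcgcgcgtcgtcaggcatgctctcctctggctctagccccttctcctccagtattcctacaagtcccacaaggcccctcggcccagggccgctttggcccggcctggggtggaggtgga
Cldn1: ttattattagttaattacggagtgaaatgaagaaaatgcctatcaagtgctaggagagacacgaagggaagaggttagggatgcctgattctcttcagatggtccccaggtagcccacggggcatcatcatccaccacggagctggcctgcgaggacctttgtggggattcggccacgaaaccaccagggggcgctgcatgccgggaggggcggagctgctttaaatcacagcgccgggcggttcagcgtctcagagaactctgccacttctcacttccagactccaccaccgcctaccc
The Cldn6 and Sfn windows held 2 matches each, and the Cldnd1 and Cldn1 windows held 0.

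Over all members, 70 of 106 had a promoter in the table. The E-box core was present in 9 of the 17 higher members with a promoter (52.9%), namely Cldn3, Cldn6, Epcam, F11r, Krt7, Krt8, Pard6b, Sfn and Tjp3. It was present in 1 of 7 lower members (14.3%, Krt10), in 5 of 30 that differed by less than 2-fold (16.7%), and in 5 of 16 under the floor in both samples (31.2%). Over the 27025 genes of the table the share was 20%. The motif AACCNGTT was present in 3 of the 17 higher members (17.6%; Cgn, Cldn5 and Sfn), in none of the other 53 members and in 2.01% of all promoters, and AACCGGTT in none of the 70 members and 0.152% of all promoters. These are counts of letters in the windows, without a test, and they do not show that a factor binds there.

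Classical and related cadherins are calcium-dependent adhesion receptors, some of which build adherens junctions. Of these genes, 3 of 6 above the floor (50%) were lower and none was higher, against 20.8% and 20.5% of all genes. Cdh11, the cadherin of mesenchyme and bone-forming cells, was at 72.2, under the floor, in the generated stem cells and at 1304 in the parental cells, at least 14.0-fold lower. Cdh13, a cadherin held in the membrane by a lipid anchor, was at 46.1, under the floor, and at 621 in the same order, at least 6.65-fold lower. Cdh3, which encodes P-cadherin, was at 404 in the generated stem cells and 1307 in the parental cells, 3.23-fold lower. Cdh11 and Cdh13 were thus under the floor in the generated stem cells, and Cdh3 remained above the floor. The intestinal cadherin gene Cdh17 was at 247 and 250.5, Cdh24 at 117 and 79.7, and Cdh5, the cadherin of endothelium, at 206 and 122, all counted as less than 2-fold apart (Cdh24 by a lower bound). Cdh4 and Cdh18 were under the floor in both samples.

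Protocadherins are a large branch of the cadherin superfamily best known for recognition between neurons. They differed less uniformly: 3 of 7 above the floor were lower (42.9%) and 1 was higher (14.3%), against 20.8% and 20.5% of all genes. The 3 lower ones belonged to the clustered genes, in which many variable exons lie side by side. Pcdhga7, of the gamma cluster, was at 2647 in the generated stem cells and 11068 in the parental cells, 4.18-fold lower. Transcripts of the gamma cluster share their last exons, and where the probe lies is not given, so this value may read other members of the cluster too. Pcdhb22 was at 214 in the generated stem cells and 537 in the parental cells, 2.51-fold lower, and Pcdha4 was at 54.8, under the floor, and 241 in the same order, at least 2.58-fold lower. The probe positions of these genes are not given either, and whether their values read these genes alone was not tested. Pcdhb12 was at 138 in the generated stem cells and 112 in the parental cells. Pcdhb3 (65.2 and 117) and Pcdhb4 (65.2 and 132) were under the floor in the generated stem cells, with lower bounds of 1.26-fold and 1.41-fold lower. Outside the clusters, Pcdh20 was at 331 in the generated stem cells and 59.7 (below the floor) in the parental cells, at least 3.53-fold higher, and Pcdh10 and Pcdh15 were under the floor in both. Of the 2 probes of Pcdh10, 1 was above the floor in the parental cells alone (66.6 in the generated stem cells and 120 in the parental cells, at least 1.28-fold lower) and the other under it in both (55.2 and 68.0).

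Of the catenins measured, Ctnna1 and Ctnnd1 differed by less than 2-fold. Ctnna1, which encodes alpha-E-catenin, a link between cadherins and actin, was at 9239 in the generated stem cells and 11261 in the parental cells, and Ctnnd1, which encodes p120-catenin, a stabiliser of cadherins at the membrane, was at 3760.2 and 4064. These log2 differences of -0.29 and -0.11 are well within the probe error. Ctnnal1, an alpha-catenin relative called alpha-catulin, was at 2420 in the generated stem cells and 419 in the parental cells, 5.78-fold higher. Ctnna3, a catenin of heart and testis, was under the floor in both. The nectins, immunoglobulin-type receptors that help cadherins to assemble, also differed by less than 2-fold in all 3 cases. Nectin1 was at 374 in the generated stem cells and 464 in the parental cells, Nectin2 at 734 and 828, and Nectin3 at 353 and 266.5.

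In the desmosome, 2 of 7 genes above the floor were higher (28.6%, against 20.5% of all genes) and none was lower, and the 2 were cadherins. Dsg2, which encodes desmoglein 2, the desmosomal cadherin of simple epithelia and of stem cells, was at 1473 in the generated stem cells and 77.7 (below the floor) in the parental cells, at least 15.7-fold higher. Dsc3, a desmocollin of stratified epithelia, was at 804 in the generated stem cells and 358 in the parental cells, 2.24-fold higher, which is close to the probe error. Dsc2 was under the floor in both, at 29.9 and 44.8. The plaque genes Dsp, Jup and Pkp1 differed by less than 2-fold. Dsp, which encodes desmoplakin and ties the plaque to keratin, was at 180.3 in the generated stem cells and 159 in the parental cells, Jup (plakoglobin) at 342 and 379, and Pkp1 (plakophilin 1) at 206 and 232.5.

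The other plakophilins were each read by probes that disagreed. Pkp4, a p120-related protein of cell borders, was at 10036 in the generated stem cells and 2275 in the parental cells on 1 probe, 4.41-fold higher, and at 29.6 and 36.7, both under the floor, on the other. The mean of both probes gave a 1.89-fold difference. Pkp2 was at 51.8 in the generated stem cells and 192 in the parental cells on 1 probe (at least 2.05-fold lower) and at 449.9 and 478 on the other. Its mean, 1.98-fold lower, was the closest to 2-fold among the members that differed by less. The difference of neither gene can be settled from these values.

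Of the 34 measured keratins, the proteins of the epithelial intermediate filaments, 23 were above the floor, 5 were higher and 1 was lower. The share that was higher, 21.7%, lay near the 20.5% of all genes. The share that was lower was 4.35%, against 20.8% of all genes. Keratins with a parental value less than 2-fold above the floor, such as Krt5 (141) and Krt16 (147), could not be counted as lower. Many keratins of both types were this dim, so the low share was in part fixed by the floor. Keratin filaments are built from pairs of a type I and a type II keratin. The 17 type I genes measured lie on chromosome 11, with 3 higher (25%) and 1 lower (8.33%) of 12 above the floor. The 17 type II genes lie on chromosome 15, with 2 higher (18.2%) and none lower of 11. Krt8, the type II keratin of simple epithelia and the early embryo, was at 2711 in the generated stem cells and 210 in the parental cells, 12.9-fold higher. Krt7, the other type II keratin of simple and glandular epithelia that was higher, was at 965 and 481 in the same order, 2.01-fold higher, just past the 2-fold line, and it came to less than 2-fold with intensity-dependent centring and with an offset of 50. Krt19, a type I keratin of simple epithelia, was at 796 in the generated stem cells and 712 in the parental cells.

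The higher type I keratins were Krt42, Krt17 and Krt13. Krt42, a keratin whose human counterpart is a pseudogene, was at 1602 in the generated stem cells and 119 in the parental cells, 13.5-fold higher. Krt17, a keratin of skin appendages and of stressed epidermis, was at 1217 in the generated stem cells and 79.7 (below the floor) in the parental cells, at least 13.0-fold higher. Krt13, a keratin of internal stratified epithelia, was at 1157 and 356 in the same order, 3.25-fold higher. Krt42 and Krt17 are neighbours, and in the RefSeq gene order the run is Krt14, Krt16, Krt17, Krt42 with no other protein-coding gene between. The neighbours on the far side did not share the difference: Krt16 was at 148 in the generated stem cells and 147 in the parental cells, and Krt14, the type I keratin of basal epidermis, at 565 and 1002 (1.77-fold lower). These 4 paralogs are alike in sequence, and whether their probes tell them apart was not tested.

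The keratins that pair in basal epidermis (Krt5 and Krt14) and in differentiating epidermis (Krt1 and Krt10) were not among the higher ones. Krt10, the type I keratin of differentiating epidermis, was at 557 in the generated stem cells and 1245 in the parental cells, 2.24-fold lower, and its type II partner Krt1 was under the floor in both samples (63.1 and 45.9). Krt5, the partner of Krt14, was at 136 and 141. These 4 keratins are also 4 of the 6 keratinocyte markers measured. The other 2 were Trp63, the transcription factor that marks basal keratinocytes, under the floor in both samples (65.2 and 84.4), and Lor, which encodes loricrin of the cornified layer, at 169 and 188. The 17 keratins counted as less than 2-fold apart (Krt2, Krt6a, Krt82 and Krt84 by a lower bound) had log2 differences from -0.83 (Krt14) to 0.88 (Krt71), and besides those named they were Krt2, Krt6a, Krt9, Krt20, Krt26, Krt31, Krt35, Krt80, Krt82, Krt84, Krt86 and Krt88. The 11 under the floor in both samples were Krt1, Krt6b, Krt23, Krt27, Krt33a, Krt34, Krt72, Krt75, Krt81, Krt90 and Krt222, several of them keratins of hair.

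**Figure D3:**
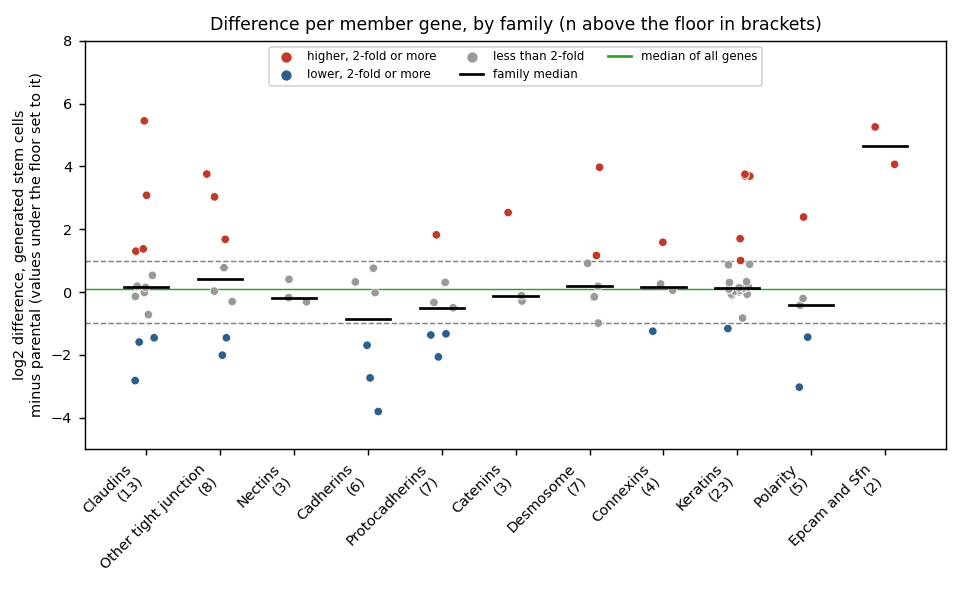
Log2 difference (generated stem cells minus parental cells, values under the floor set to it) of each member above the floor in at least 1 sample, by family, with the family median as a black bar, the median of all genes (0.10) in green and the 2-fold lines dashed. Cadherins have 3 of 6 points below the lower line and none above the upper line, keratins have 5 of 23 above and 1 below, and nectins stay within the lines. Over all genes, 20.5% were higher and 20.8% lower.

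Connexins are the subunits of gap junction channels. Of those that matched the name pattern, 1 was higher and 1 lower of 4 above the floor (25% each way, near the 20.5% and 20.8% of all genes). The connexin genes Gje1 and Gjd2 did not match it. Gje1 was at 69.4, under the floor, in the generated stem cells and 320 in the parental cells, at least 3.42-fold lower. Gjd2 was at 442 and 349 in the same order, less than 2-fold apart. Gja1, which encodes connexin 43, the main connexin of fibroblasts and of ES cells, was at 9289 in the generated stem cells and 22045 in the parental cells, 2.37-fold lower and far above the floor in both. Gja4, which encodes connexin 37 of oocytes and arteries, was at 408 and 136 in the same order, higher by 1.58 on the log2 scale. Gja5 (101 and 97.2) and Gjb5 (157 and 131) differed by less than 2-fold, and Gja3 and Gjb1 were under the floor in both samples.

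Among the polarity genes, the PAR6 paralogs differed in opposite directions. PAR6 proteins hold atypical protein kinase C at the apical side and form a complex with PAR3. Pard6b was at 1833 in the generated stem cells and 350.2 in the parental cells, 5.23-fold higher, while Pard6g was at 98.2, just above the floor, and 801 in the same order, 8.15-fold lower. Pard6a, on 2 probes, was at 1279 and 1371 and at 119 and 148, differing little on either. Of the PAR3 genes, Pard3 was at 1812 in the generated stem cells and 2423 in the parental cells, a difference of less than 2-fold, and Pard3b was at 179 and 483, 2.70-fold lower.

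The remaining members matched the pattern by name as epithelial genes. Epcam, an epithelial adhesion molecule also found on ES cells that binds claudins, was at 1570.5 in the generated stem cells and 25.2 (below the floor) in the parental cells, at least 16.7-fold higher. Sfn, which encodes 14-3-3 sigma, an epithelial adaptor protein and target of p53, was at 11959 in the generated stem cells and 313 in the parental cells, 38.2-fold higher. No Grhl, Ovol or Crb gene was among the members analysed here.

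Genes that work with the members were read from lists made with earlier results of these data known, so that their direction is not independent evidence. In the list of epithelial genes, 10 of the 12 above the floor (of 16 measured) were higher and none was lower. Over all genes, 20.5% were higher and 20.8% lower. The median log2 difference of the list was 2.78. Spint1, a membrane inhibitor of serine proteases, was at 5312 in the generated stem cells and 32.7 (below the floor) in the parental cells, at least 56.6-fold higher, and Elf3, an epithelial ETS factor, at 2756 and 46.9, at least 29.4-fold higher. St14, the protease matriptase that Spint1 inhibits, was at 2416 in the generated stem cells and 26.4 (below the floor) in the parental cells, and Lsr, a protein of tricellular tight junctions, at 2922 and 169.7 (17.2-fold higher).

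Of the transcription factors that drive the loss of epithelial character, most of those measured were lower. Of 12 listed, 6 were measured. Of these, 4 were lower (66.7%) and 1 was higher (16.7%), against 20.8% and 20.5% of all genes. Their median log2 difference was -1.57. Snai2, a repressor of junction genes, was at 32.8, under the floor, in the generated stem cells and at 3095 in the parental cells, at least 33.1-fold lower. Zeb1, another such repressor, was at 402 and 2692 in the same order, 6.70-fold lower. Foxc2 (487 and 1814) and Tcf4 (1072 and 2547) were 3.72-fold and 2.38-fold lower, Tcf3 was at 1412 and 1874, and Snai1 was the higher one, at 1833 and 833 (2.20-fold). The 4 lower factors were thus accompanied by a paralog of Snai2 that was higher.

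Partners of the tight junction plaque and of actin were lower more often than higher, 6 of 12 (50%) against 1 of 12 (8.33%) above the floor. Over all genes, 20.8% were lower and 20.5% higher. The median log2 difference of these partners was -0.78. Amotl2, an angiomotin-family scaffold, was at 222 in the generated stem cells and 3378 in the parental cells, 15.2-fold lower, and Myl9, a myosin light chain of contractile cells, at 1721 and 20238, 11.8-fold lower. Lsr, given above, was the higher one. Of 11 partners of the adherens junction above the floor, 4 were lower (36.4%) and 2 higher (18.2%), against 20.8% and 20.5% of all genes. Their median log2 difference was 0.30, of the opposite sign to these counts. Vcl, which encodes vinculin, was at 1932.5 and 9198 (4.76-fold lower), and Ptprm, a receptor phosphatase, was at least 5.00-fold lower (18.6 and 467). Ssx2ip, which encodes a protein of adherens junctions and centrosomes, was 3.92-fold higher (7517 and 1917), while the afadin gene Afdn was at 1498 and 1279. Of 14 polarity partners above the floor, 4 were higher (28.6%) and 2 lower (14.3%), against 20.5% and 20.8% of all genes. Their median of -0.29 was again opposite in sign to the counts. Prkcz, the atypical protein kinase C zeta bound by PAR6, was at 917 in the generated stem cells and 127 in the parental cells (7.21-fold higher), and Llgl2, a basolateral polarity protein, at 470.3 and 54.9 (at least 5.02-fold higher). Cdc42, the small GTPase that binds PAR6, was at 1727 and 6155 (3.56-fold lower).

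**Figure D4:**
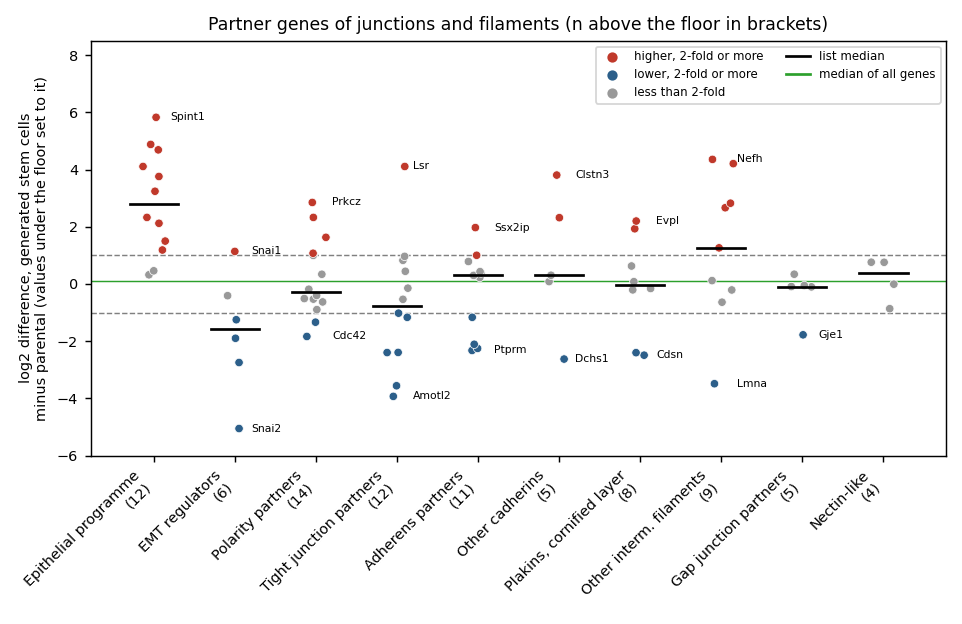
Log2 difference (generated stem cells minus parental cells, values under the floor set to it) of the genes in lists that work with the members, with list medians as black bars, the median of all genes (0.10) in green and the 2-fold lines dashed. The epithelial list has 10 of 12 points above the upper line and the list of regulators of epithelial-mesenchymal transition (EMT) 4 of 6 below the lower line.

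Markers of other cells differed too. Of 6 measured leukocyte markers, 3 were lower in the generated stem cells (50%, against 20.8% of all genes) and none was higher. Ptprc (118 in the generated stem cells and 165 in the parental cells), Itgam (75.8, under the floor, and 134) and Spi1 (268 and 224) were counted as less than 2-fold apart. The 6 markers summed to 1015 in the generated stem cells and 6343 in the parental cells. The highest parental value was that of C1qa (3198, against 35.7). Mesenchymal markers summed to 1093 in the generated stem cells and 168399 in the parental cells. The part of these cell types in the differences of Cdh11, Cdh13, Jam3 and the other lower members was not tested.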

How the data were processed

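The values deposited by the authors are probe intensities on a linear scale from a 1-colour mouse oligonucleotide array, hybridised with Cy5-labelled antisense RNA per the labels' protocols. Scanner, background correction and normalisation are not given in the labels or the file, and the quantiles of both columns nearly coincide, which a normalisation between arrays would give and which would remove a difference in total signal. How the replicates of the design text relate to the columns is not given either.

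Gene symbols came from the platform annotation, updated by Entrez identifier from RefSeq (GRCm38.p6, used for names, chromosomes, gene order and promoters, the first entry where a gene had several). The annotation gave 1 symbol to 12380 of the 13989 probes, several to 0 and none to 1609, and 12364 were found by identifier, while 16 stayed under the platform symbol. Log2 intensities of a gene's probes were averaged, and the difference is generated stem cells minus parental cells. Values at or under a column's 25th percentile were set to it. With 1 sample per group, no test was possible and genes were counted by size (2-fold). The members and the gene lists were chosen with earlier results of these data known. By rule, both values are given for every member 2-fold or more apart, and up to 2 genes each way per list, with all of 2 lists open to naming. St14, Lsr in the epithelial list, Trp63, Lor, Vwf, Kdr, Pecam1, Nanog, C1qa, Ptprc, Itgam, Spi1 and Gjd2 were named after their values were seen. The computation was tested on simulated data. Alternatives were median, quantile and lowess centring (span 0.3), the brightest probe, an offset of 50, other floors, 4-fold, probes in place of genes and, added after seeing the data, 2 SD of the probe error. Python 3.11.15, numpy 2.4.6 and pandas 2.3.3 were used.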

Additional observations from a re-analysis of the deposited data

How the results depend on the processing

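The counts of 20 higher and 15 lower members stayed within 1.5 times under median, quantile and lowess centring, the brightest probe per gene (22 higher, with Pkp4 and Cldn19 added on 1 probe each), an offset of 50, no floor, values under the floor as given, a floor at the 10th percentile or the median, and probes in place of genes. They were smaller by construction in 3 settings: 13 higher with genes above the floor in both samples alone, 12 higher and 6 lower at 4-fold, and 12 higher and 4 lower at 2 SD of the probe error. With the floor at the median, 16 of the 44 members above it were higher and 10 lower, against 20.9% and 20.4% of all genes. The share of higher members thus lay further from that of all genes than with the floor at the 25th percentile. It lay nearer when only genes above the floor in both samples were kept. There, 13 of 59 members were higher and 11 lower, against 20.2% and 20% of all genes. The median log2 difference of the members lay between 0.04 and 0.08 under all alternatives in which it was computed. Of 280 recomputed differences of the 35 named members, none changed sign and 4 moved by more than the probe SD, those of Cldn7 (log2 4.22) and Epcam (5.96) when values under the floor were left as given, with dim genes kept or not. Of the 35, 33 kept their call under the alternatives that recompute single genes with the 2-fold rule and a floor no higher than the 25th percentile, and Krt7 and Cldn5 did not. No paired analysis was possible because each group has 1 sample. How the columns would vary between cultures is not known from these data. Signal near the floor limits the 22 members with 1 value under it, 11 of which were 2-fold or more apart. With values under the floor as given, the counts were 21 higher (Marveld2 added) and 16 lower (Pcdhb4 added).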

Other observations

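Intermediate filament genes other than keratins differed as well. Of 16 listed, 9 were measured. Of these, 5 were higher (55.6%) and 1 was lower (11.1%) in the generated stem cells, against 20.5% and 20.8% of all genes. Their median log2 difference was 1.26. Nefh and Prph, filament genes of neurons, were both higher: Nefh was at 1917 in the generated stem cells against 67.1 in the parental cells, a value under the floor (at least 20.4-fold), and Prph at 2095 against 114 (18.5-fold). Lmna, which encodes lamins A and C of the nuclear envelope, was at 2170 in the generated stem cells and 24279 in the parental cells, 11.2-fold lower.

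In the list of plakins and the cornified layer, 2 of 8 genes above the floor were higher and 2 lower (median log2 difference -0.04). These shares of 25% each way lay near the 20.5% and 20.8% of all genes. Evpl, which encodes envoplakin, was at 431 in the generated stem cells and 88.5 (below the floor) in the parental cells (at least 4.59-fold higher), and Perp, a desmosomal p53 target, was 3.81-fold higher (2317 and 608). Plec, the plectin that cross-links filaments, was 5.27-fold lower (3643 and 19215), and Cdsn, which encodes corneodesmosin, 5.61-fold lower (124.7 and 699). Among 5 other cadherin-family genes above the floor (median 0.31), Clstn3 was 13.99-fold higher (1562 and 112), Celsr3 4.99-fold higher (702 and 141), and Dchs1 6.16-fold lower (187 and 1151). Of 5 further gap junction genes above the floor (median -0.09) 1 was lower, the connexin gene Gje1 (69.4, under the floor, and 320, at least 3.42-fold). Of 4 nectin-like genes (median 0.38) none was 2-fold apart. Of the remaining marker lists, 1 of 2 trophoblast genes was higher, and 1 of 2 endoderm genes above the floor, Gata6, was lower (142 and 1733).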
